A study of Mus musculus with 2 samples.

Results

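Integrins are the transmembrane receptors by which cells hold on to the extracellular matrix (ECM), and the cytoplasmic proteins that gather on their tails at focal adhesions link them to actin and to signaling. The list described here holds 43 genes, 19 integrin subunits and 24 cytoplasmic adhesion proteins, out of 21829 genes with a value. The rule takes genes by symbol and uses no measured value, although the list was drawn up with earlier results of these data known, and all 43 symbols were found.

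The values came from 2 libraries of polyadenylated RNA from C2C12 cells, an immortalized mouse myoblast line, grown under standard serum conditions. 1 library was from unedited cells, labelled WT, and 1 from cells labelled GNE KO, in which CRISPR–Cas9 editing had placed a frameshifting insertion in an early coding exon of Gne, the gene of the bifunctional enzyme of sialic acid synthesis. No other allele or treatment is named for either group. The supplementary methods describe isolation of single KO clones after transfection, and the labels do not say which clone was sequenced. With 1 library per line there is no replicate check, no error and no p-value for any value below, and a difference between clones cannot be told apart from one due to Gne.

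Gne itself had 6.67 FPKM, a fragment density scaled by transcript length and library total, in WT cells, and 7.34 FPKM in the other library. Its RNA was therefore not lower, so it does not check the label and does not tell which library carries the edit, and the second library is called the library labelled KO throughout. The files name no unit, and FPKM was inferred from the values. Paired values below give WT first. Of 10 myoblast markers, 7 had a mean of at least 1 FPKM, of which 4 differed downward by over 2-fold and 1, Myf5, upward, in the library labelled KO. The summed level of the 10 went from 214 to 40.3 FPKM, and Myod1, the defining myogenic transcription factor, was listed at 60.0 FPKM in WT and at 0 in the library labelled KO. Summed fibroblast markers went from 75.7 to 401 FPKM and summed smooth muscle markers from 233 to 598 FPKM, while Lum, Tcf21 and Thy1 of the first list and Myocd of the second were at 0 in both libraries. Acta2, at 213 and 544 FPKM, made up most of the smooth muscle sum in both libraries. Col1a1, at 9.66 and 273 FPKM, made up most of the fibroblast sum in the library labelled KO only. In WT most of that sum came from Pdgfrb. The fibroblast markers Pdgfra, at 10.8 and 12.3 FPKM, and Pdgfrb, at 54.5 and 80.2 FPKM, had log2 changes of 0.17 and 0.55. Summed macrophage markers were at 4.03 and 3.10 FPKM, endothelial markers at 0.010 and 0.028, epithelial markers at 0.051 and 0.020 and adipocyte markers at 10.2 and 9.63, and Ptprc, Cdh5, Epcam and Adipoq were at 0 in both libraries. The part of these shifts in the results below was not tested, and in bulk RNA fewer cells of a type and less RNA per cell cannot be told apart.

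Integrins are heterodimers of 1 α and 1 β chain. The α chain largely sets which matrix protein is bound, and the tail of the β chain recruits talin and kindlin, which switch the receptor on. The ILK–PINCH–parvin complex, focal adhesion kinase (FAK), Src, paxillin and p130Cas then assemble, and vinculin, α-actinin, filamin, tensin, zyxin and VASP couple the site to actin. In skeletal muscle the laminin receptor made of Itga7 and Itgb1 anchors fibers to their basement membrane. The study asked whether ECM made by the KO cells acts through FAK on AKT and mTORC1, which makes the RNA levels of the receptors and their partners relevant.

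Most members were expressed, and the counts of members beyond 2-fold were close to the shares over all genes. Of the 43, 32 had a mean of at least 1 FPKM over both libraries, the limit used here, and 11 were below it. Changes are given as log2((KO + 1)/(WT + 1)), where the added 1 FPKM holds back the change of low genes. In the library labelled KO, 0 of the 32 were above a 2-fold higher level, where 2.84% of the 10542 genes past the same limit were, and 1, Lims2, was below a 2-fold lower level, where 3.43% of all genes were. Lims2 passed the limit of 1 FPKM through its WT value alone. With a limit of 5 FPKM, which Lims2 and Itgb8 did not pass, 0 of 30 members were beyond 2-fold in either direction, where 1.69% and 2.58% of genes were. Of the 32, 22 were higher by any amount, against 50.7% of all genes. The median log2 change was 0.18 over the 10 integrin subunits and 0.14 over the 22 cytoplasmic members past the limit, against 0.0061 over all genes.

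At a smaller fold, chosen after the values were seen, 5 of the 32 were more than 1.5-fold higher, namely Lpp, Itgb5, Itgb8, Itgb1 and Vasp, and 4 were more than 1.5-fold lower, namely Lims2, Itga7, Itgb7 and Itgb3. All genes gave 7.68% and 7.50%. The integrin subunits supplied 6 of these 9, 3 in each direction. The median size of the change, regardless of direction, was 0.65 over the 10 integrin subunits, 0.27 over the 22 cytoplasmic members and 0.22 over all genes.

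**Figure D1:**
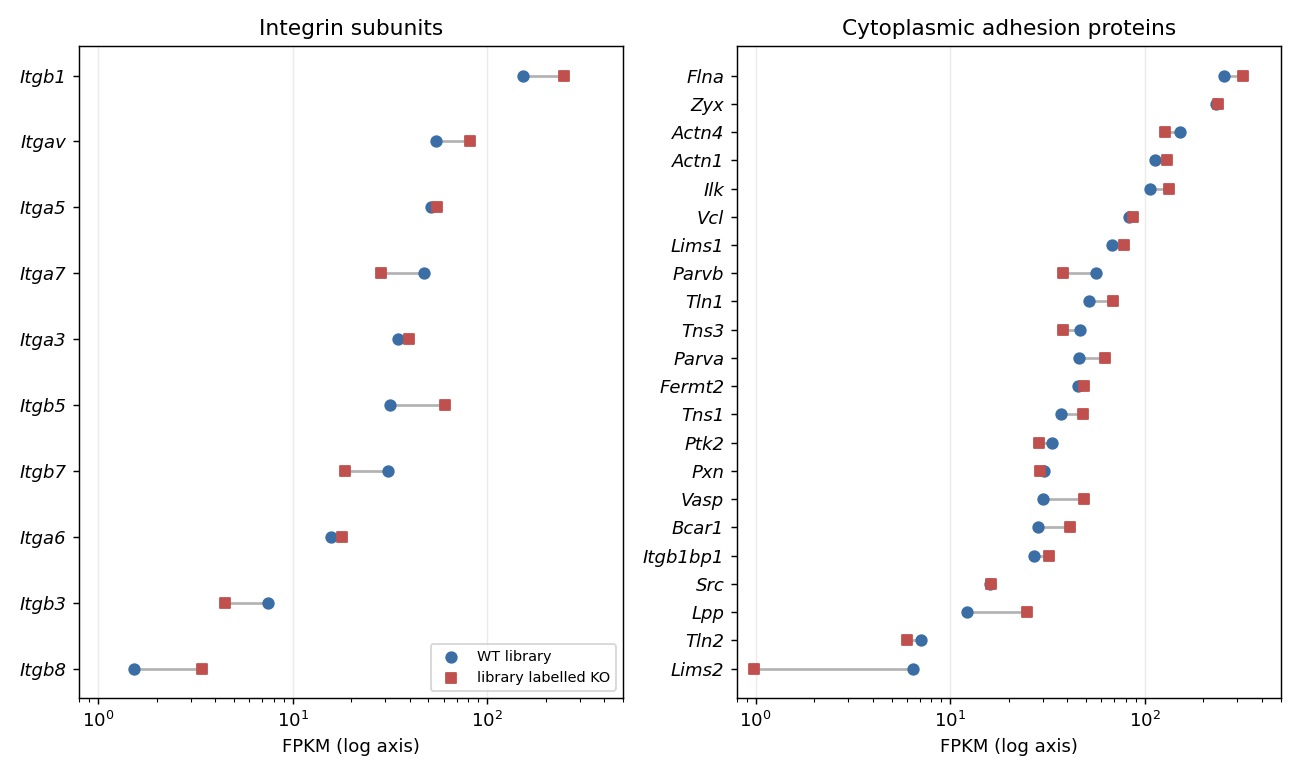
Level of each of the 32 members with a mean of at least 1 FPKM, on a log axis in FPKM, with 1 point for the WT library (circle) and 1 for the library labelled KO (square). Itgb1 was the most abundant integrin subunit in both libraries, and Lims2, at 6.42 and 0.98 FPKM, has the longest line between its points.

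Itgb1, the β chain shared by most matrix receptors, had the highest level of all integrin subunits. It was at 153 FPKM (WT) and 247 FPKM (labelled KO), a log2 change of 0.69. It spans 129411876 to 129460618 on chromosome 8 (GRCm39), and the genes within 5 Mb of it had a median change of 0.34. With that median subtracted, 0.35 of its change was left. Itgb5, which joins Itgav to form a vitronectin receptor, was at 31.9 FPKM (WT) and 60.6 FPKM (labelled KO), a log2 change of 0.91. It spans 33649988 to 33771137 on chromosome 16, where its neighbors had a median of 0.14.

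The other β chains were lower in abundance and went both ways. Itgb3, the alternative vitronectin receptor partner of Itgav, was at 7.45 FPKM (WT) and 4.51 FPKM (labelled KO), a log2 change of -0.62, with neighbors at -0.033. Itgb8, which joins Itgav in the activation of latent TGF-β, was at 1.53 and 3.44 FPKM, and its log2 change of 0.81 moved to 1.12 with an added 0.1 FPKM and to 0.37 with 5 FPKM. Itgb6, another Itgav partner that is typical of epithelia, was at 0.176 FPKM (WT) and 0.038 FPKM (labelled KO). Itgb4, the hemidesmosome partner of Itga6, was at 0.471 and 0.867 FPKM. Itgb4 and Itgb6 lay under the limit. Of the β chains known to pair with Itgav, Itgb1 and Itgb5 had the most RNA in both libraries, and pairing was not measured. The ratio of Itgb5 to Itgb3 was 4.28 (WT) and 13.4 (labelled KO).

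Itgb7 is known from leukocytes, where it pairs with Itga4 or Itgae. It was at 30.9 FPKM (WT) and 18.6 FPKM (labelled KO), a log2 change of -0.71. Both known partners were close to or at 0, with Itga4 listed at 0 and 0.004 FPKM and Itgae at 0.067 and 0.009 FPKM. It spans 102124429 to 102140379 on chromosome 15, where its neighbors had a median of -0.40, and -0.30 was left after subtraction.

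To show the DNA next to these differences, the 250 bases before the RefSeq start site are printed for the members beyond 1.5-fold with a single start site in the RefSeq table for GRCm38.p6. Windows of Itga7, Itgb3 and Lims2 were not analysed here, so Itgb7 is the single lower member shown. Lpp has more than a single start site, so its windows are in the counts below but are not printed. Each reads 5′ to 3′ on the strand of the gene. Capitals mark every match, on either strand, to GGGCGG (the Sp1-type GC box), GGAATG (a TEAD half-site) or CANNTG (the E-box that myogenic and other basic helix-loop-helix factors bind). TGANTCA (an AP-1 site) and the CArG box (a serum response factor site) were searched too and were absent from these windows. Higher in the library labelled KO were Itgb1 (chr8:128685404-128685653, plus strand), Itgb5 (chr16:33829415-33829664, plus strand), Itgb8 (chr12:119238277-119238526, minus strand) and Vasp (chr7:19271855-19272104, minus strand). Lower was Itgb7 (chr15:102231936-102232185, minus strand).
Itgb1: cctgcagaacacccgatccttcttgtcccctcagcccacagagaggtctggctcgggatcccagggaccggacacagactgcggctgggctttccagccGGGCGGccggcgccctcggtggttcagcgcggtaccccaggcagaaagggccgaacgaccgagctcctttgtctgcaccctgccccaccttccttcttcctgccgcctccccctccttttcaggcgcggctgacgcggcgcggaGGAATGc
Itgb5: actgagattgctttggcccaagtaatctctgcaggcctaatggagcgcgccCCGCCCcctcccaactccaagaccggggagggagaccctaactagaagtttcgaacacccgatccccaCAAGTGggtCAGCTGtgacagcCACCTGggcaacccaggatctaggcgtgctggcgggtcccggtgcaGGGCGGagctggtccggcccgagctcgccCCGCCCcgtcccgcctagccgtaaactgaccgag
Itgb8: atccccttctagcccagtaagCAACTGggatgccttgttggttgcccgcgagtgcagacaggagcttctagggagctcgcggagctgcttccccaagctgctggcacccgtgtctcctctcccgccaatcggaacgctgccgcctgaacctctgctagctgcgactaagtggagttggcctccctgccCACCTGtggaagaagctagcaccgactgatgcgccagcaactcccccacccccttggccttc
Vasp: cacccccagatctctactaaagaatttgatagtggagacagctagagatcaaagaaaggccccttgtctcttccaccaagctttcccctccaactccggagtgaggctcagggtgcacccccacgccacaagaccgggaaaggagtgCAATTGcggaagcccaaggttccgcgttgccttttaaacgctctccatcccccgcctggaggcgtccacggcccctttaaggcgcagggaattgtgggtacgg
Itgb7: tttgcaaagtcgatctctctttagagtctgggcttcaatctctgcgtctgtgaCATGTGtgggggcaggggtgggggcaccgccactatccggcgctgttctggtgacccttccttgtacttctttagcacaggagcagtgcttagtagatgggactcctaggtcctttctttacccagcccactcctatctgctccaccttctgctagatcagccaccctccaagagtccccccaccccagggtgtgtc

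The GC box matched in Itgb1 and Itgb5, GGAATG in Itgb1 and the E-box in Itgb5, Itgb7, Itgb8 and Vasp. Over all 32851 start sites of the table, 32.7% of such windows held a GC box, 12.6% GGAATG and 66.2% an E-box. Of the 30 windows of the 24 member genes past the limit that had any, 19 held a GC box, 5 GGAATG, 19 an E-box, 2 an AP-1 site and 2 a CArG box. The median GC content was 64.2% over the 33 members with a window and 52.4% over all windows, and its part in the GC box matches was not tested. The AP-1 site was in 6.75% and the CArG box in 1.47% of all windows. A match is a match of letters, and binding was not measured.

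Among the α chains, the receptors for arginine–glycine–aspartate (RGD) sequences and for laminin carried nearly all of the RNA. Itgav, the vitronectin and fibronectin receptor chain, was at 54.8 FPKM (WT) and 81.3 FPKM (labelled KO), a log2 change of 0.56, with neighbors at -0.034 (chromosome 2, 83554403 to 83637260). Itga5, the chain of the classical fibronectin receptor, was at 51.6 and 55.5 FPKM, a log2 change of 0.10. The genes near Itga5 on chromosome 15 had a median of -0.40, and relative to them its change was 0.51. Itga8, a further RGD receptor chain, was listed at 0.005 FPKM in WT and at 0 in the library labelled KO.

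The laminin-binding chains did not move as a group. Itga7, the laminin receptor chain of muscle, was at 47.4 FPKM (WT) and 28.4 FPKM (labelled KO), a log2 change of -0.72. It lies on chromosome 10 from 128769621 to 128794169, where the neighbors had a median of 0.18, and relative to them the change was -0.90. Itga3 was at 34.7 and 39.8 FPKM and Itga6 at 15.8 and 17.9 FPKM, log2 changes of 0.19 and 0.17. Itga7 was thus the only laminin-binding chain beyond 1.5-fold.

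The chains that give integrins their collagen-binding domain were near absent. Itga1 was at 0.008 FPKM (WT) and 0.033 FPKM (labelled KO), Itga2 at 0.004 and 0, Itga10 at 0.563 and 0.531 and Itga11 at 0.006 and 0.576. All 4 lay under the limit in both libraries, and their sum was 0.581 FPKM (WT) and 1.14 FPKM (labelled KO). Itga4, a receptor chain for fibronectin and Vcam1, was at or near 0 as given above, and Itga9, which binds tenascin among others, was listed at 0 in both. Of the leukocyte and platelet integrin chains, which are outside the list, Itgad, Itgam and Itgax were at 0 in both libraries, Itga2b, Itgae and Itgal were under 1 FPKM in both, and Itgb2 was at 1.12 and 1.96 FPKM.

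Because FPKM values are per length, the subunits can be set side by side. The sum over the 12 α chains was 205 FPKM (WT) and 224 FPKM (labelled KO), and the sum over the 7 β chains was 225 and 335 FPKM. The share of the α sum held by Itgav went from 26.7% to 36.3% and that of Itga7 from 23.2% to 12.7%, while Itga5 held 25.2% and 24.8%. By class, RGD-binding chains went from 51.9% to 61.1% of the α sum and laminin-binding chains from 47.8% to 38.4%. Itgav was the only RGD-binding chain that gained share, and Itga7 the only laminin-binding chain that lost it. Itga3 held 16.9% (WT) and 17.8% (labelled KO) and Itga6 7.71% and 7.98%. The share of the β sum held by Itgb1 went from 67.9% to 73.8%, that of Itgb5 from 14.1% to 18.1% and that of Itgb7 from 13.7% to 5.54%. These shares do not depend on how the libraries were scaled, and they describe RNA, not receptors at the surface.

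**Figure D2:**
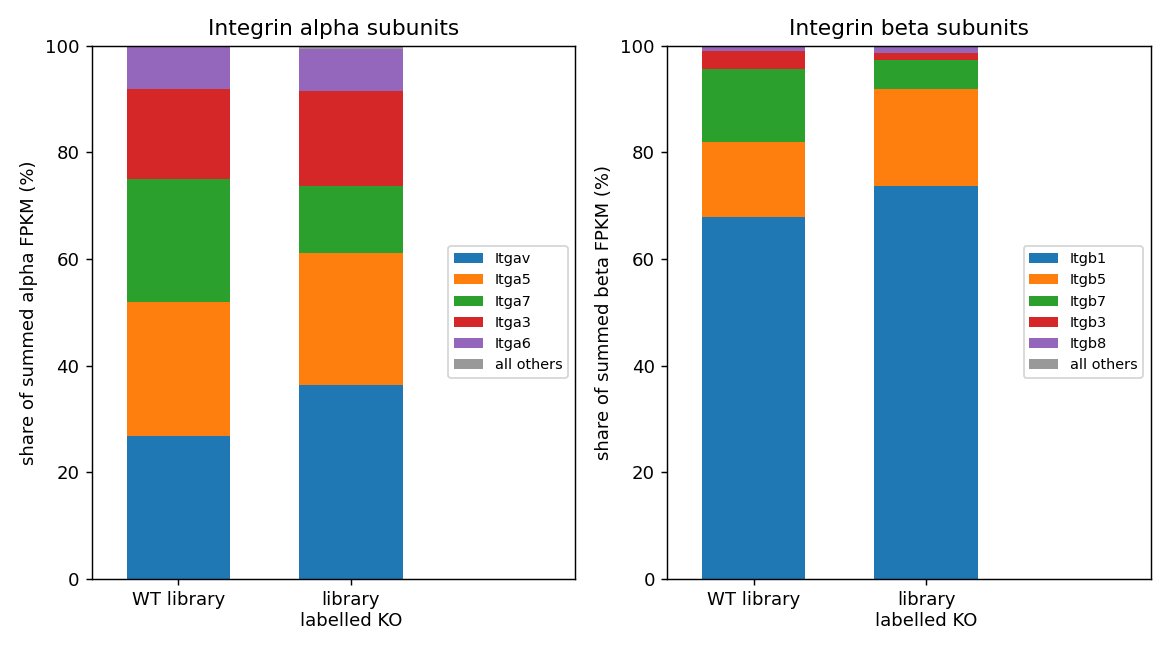
Share of each subunit in the summed FPKM of the α chains (left) and β chains (right), in percent, with 1 bar per library. The Itgav share was 26.7% and 36.3%, the Itga7 share 23.2% and 12.7% and the Itgb7 share 13.7% and 5.54%, in each case WT first.

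Of the cytoplasmic members, the integrin activators were within 1.5-fold. Tln1, the main talin, was at 51.9 FPKM (WT) and 68.6 FPKM (labelled KO), a log2 change of 0.40. Tln2, the talin that striated muscle favors, was at 7.12 and 5.999 FPKM, a log2 change of -0.21, although its neighbors on chromosome 9 had a median of 0.32. The ratio of Tln1 to Tln2 was 7.29 (WT) and 11.4 (labelled KO). Fermt2, the kindlin of mesenchymal cells, was at 45.7 and 48.7 FPKM, and Fermt1, the kindlin of epithelia, was at 0 in both. Itgb1bp1, which competes with talin for the Itgb1 tail, was at 26.9 and 32.2 FPKM, and Itgb1bp2, the striated muscle protein melusin, was under the limit at 0.156 and 0.071 FPKM.

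The ILK–PINCH–parvin complex held the largest change of the list. Lims2, which encodes PINCH2, was at 6.42 FPKM (WT) and 0.98 FPKM (labelled KO), a log2 change of -1.91. This lay at percentile 0.90 of the changes of all genes, with neighbors at -0.066. Without the added 1 FPKM it was a 6.55-fold lower value. Lims2 passed the limit through its WT value alone, as 0.98 FPKM is under 1. With an added 5 FPKM the log2 change was -0.93, no longer beyond 2-fold, and with 0.1 it was -2.59. Lims1, which encodes the relative PINCH1, was at 67.9 and 78.2 FPKM, a log2 change of 0.20, with neighbors on chromosome 10 at 0.24. The ratio of Lims1 to Lims2 was 10.6 (WT) and 79.8 (labelled KO), so Lims1 RNA was the more abundant in both, and protein was not measured.

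The parvins, which connect the complex to actin, exchanged order. Parva was at 46.1 FPKM (WT) and 62.7 FPKM (labelled KO), and Parvb at 56.1 and 38.1 FPKM, log2 changes of 0.44 and -0.55. The ratio of Parva to Parvb was 0.822 (WT) and 1.65 (labelled KO). The neighbors of Parvb on chromosome 15 had a median of -0.38, and -0.17 of its change was left after subtraction. The scaffold Ilk, whose product joins both, was at 107 and 134 FPKM, a log2 change of 0.32.

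The signaling core at focal adhesions showed small differences in RNA. Ptk2, which encodes FAK, was at 33.2 FPKM (WT) and 28.7 FPKM (labelled KO), a log2 change of -0.20. Its neighbors on chromosome 15 had a median of -0.36, and relative to them the change was 0.16. Src was at 16.0 and 16.2 FPKM and the adaptor gene Pxn, for paxillin, at 30.5 and 28.9 FPKM. Bcar1, for the Src substrate p130Cas, was at 28.4 and 41.5 FPKM, a log2 change of 0.53, with neighbors on chromosome 8 at 0.27. Phosphorylation, by which FAK activity is read, is not seen in RNA.

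The actin linkers were among the most abundant members. Flna, for the actin crosslinker filamin A, was at 257 FPKM (WT) and 319 FPKM (labelled KO), and Vcl, for vinculin, at 83.4 and 87.1 FPKM. Actn1 was at 113 and 131 FPKM and its relative Actn4 at 152 and 127 FPKM. The ratio of these α-actinins was 0.744 (WT) and 1.03 (labelled KO), so they were near equal in the library labelled KO. The tensins, which bind β tails in mature adhesions, differed in order. Tns1 was at 37.4 and 48.3 FPKM and Tns3 at 46.4 and 38.2 FPKM, and their ratio was 0.805 (WT) and 1.26 (labelled KO). None of these 6 genes was more than 1.5-fold different. Their log2 changes ran from -0.27 to 0.36, where the median size of the change over all genes was 0.22.

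Zyxin and its relatives sit at the actin end of adhesions. Zyx was at 234 FPKM (WT) and 239 FPKM (labelled KO), a log2 change of 0.033. Lpp, its LIM-domain relative that is abundant in smooth muscle, was at 12.2 and 24.7 FPKM, a log2 change of 0.96, the highest of the list with 1 FPKM added. As plain ratios Itgb8 was above it, at 2.26 against 2.02, so both the order and whether they count as 2-fold rest on the added value. Vasp, which promotes actin filament growth and is recruited by zyxin, was at 30.2 and 48.6 FPKM, a log2 change of 0.67. Lpp spans 24212130 to 24811328 on chromosome 16 and Vasp 18988769 to 19006831 on chromosome 7, and their neighbors had medians of 0.026 and -0.018.

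**Figure D3:**
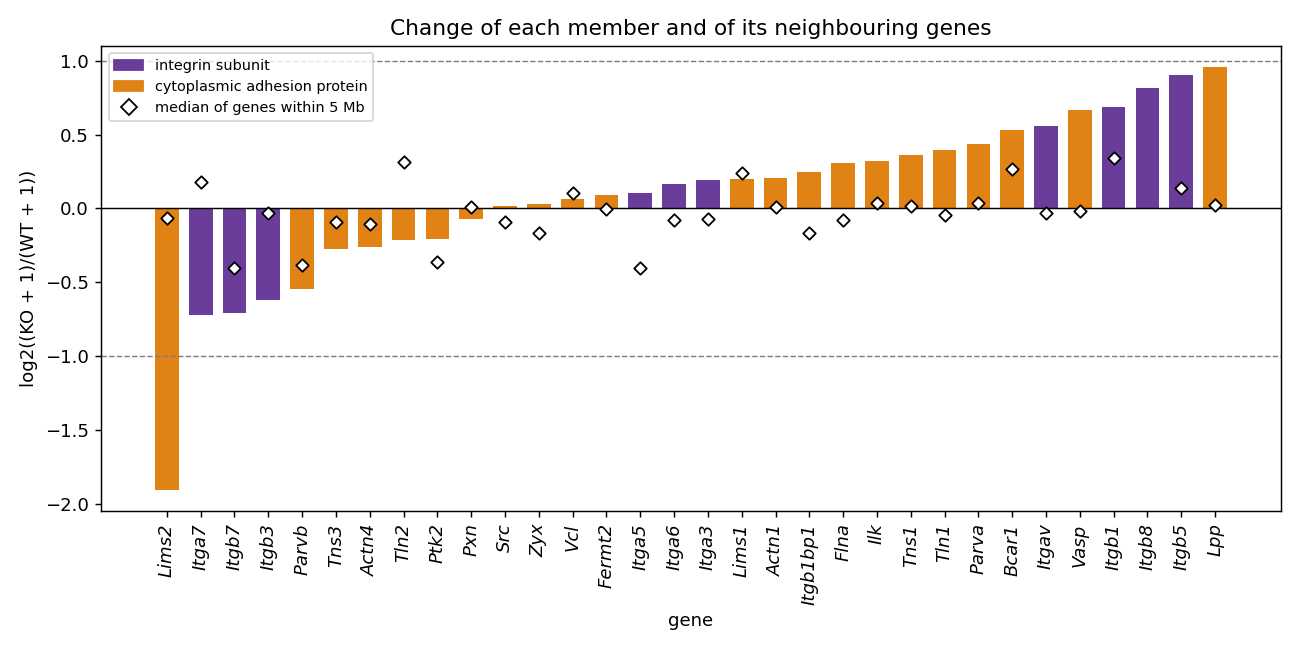
Log2((KO + 1)/(WT + 1)) of the 32 members past the limit (bars, colored by subgroup) and the median of the genes within 5 Mb of each (diamonds; Itgb8 has too few neighbors), with dashed lines at 2-fold. Lims2, at -1.91, is the only bar beyond a dashed line, and the diamonds run from -0.40 to 0.34.

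Neighboring genes differed near several members, in the direction of the member for some and opposite to it for others, such as Itga5 and Tln2. The median of the genes near a member ran from -0.40 to 0.34, and for 7 of the 31 members with enough neighbors it was beyond 0.25 in either direction. The share of all genes with such a neighbor median was not taken, so this count has no background. The windows of Itga5 and Itgb7 overlap, so these members are not separate cases. The 4 members on chromosome 15, Itga5, Itgb7, Parvb and Ptk2, all had neighbor medians between -0.40 and -0.36. What moves such stretches was not tested. After subtraction, 4 of the 31, Lpp, Itgb5, Vasp and Itgav, were more than 1.5-fold higher, and 2, Lims2 and Itga7, were more than 1.5-fold lower. All genes gave 6.53% and 5.69% under the same subtraction. Itgb1 and Itgb7 thus left the group beyond 1.5-fold, Itgb3 came just short of it at -0.58, and Itgav entered it.

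Further genes of the pathway, from lists that hold no member, were compared in the same way. Among 51 other adhesion adaptors and signaling genes past the limit, 1 was more than 2-fold higher and 0 lower, where 2.84% and 3.43% of all genes were. The higher gene was Layn, the talin-binding hyaluronan receptor layilin, at 21.6 FPKM (WT) and 50.7 FPKM (labelled KO), a log2 change of 1.20. Its neighbors had a median of 0.32, and with that subtracted it was no longer beyond 2-fold. The median over this list was 0.21. On the lower side Ptk2b, the FAK relative, at 3.71 and 1.55 FPKM, and Actn3, a muscle α-actinin, at 2.11 and 0.935 FPKM, had log2 changes of -0.88 and -0.69, and passed 2-fold with an added 0.1 FPKM in place of 1. These 2 were picked with their values in view.

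Of 31 integrin ligand genes past the limit, 9 exceeded 2-fold on the higher side and 1 on the lower, where 2.84% and 3.43% of all genes did. The median over the ligands was 0.53. Regardless of direction, the median size of the change was 0.65 over the ligands, as it was over the integrin subunits. The 5 with the largest change were Col1a1, Postn, Thbs2, Nid2 and Col6a3. Postn, counted among the 9, was at 0.44 FPKM (WT) and 33.9 FPKM (labelled KO). It passed the limit through the library labelled KO alone. Thbs2, a matricellular thrombospondin, was at 2.80 FPKM (WT) and 37.8 FPKM (labelled KO), and Nid2, a basement membrane linker, at 5.23 and 29.3 FPKM. Lama5, a laminin chain bound by the receptors of Itga3 and Itga6, was the 1 gene on the lower side, at 23.7 and 10.7 FPKM, and did not pass 2-fold with an added 5 FPKM. Col1a1 and Postn are also fibroblast markers, and the difference between ligands and receptors was not tested.

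**Figure D4:**
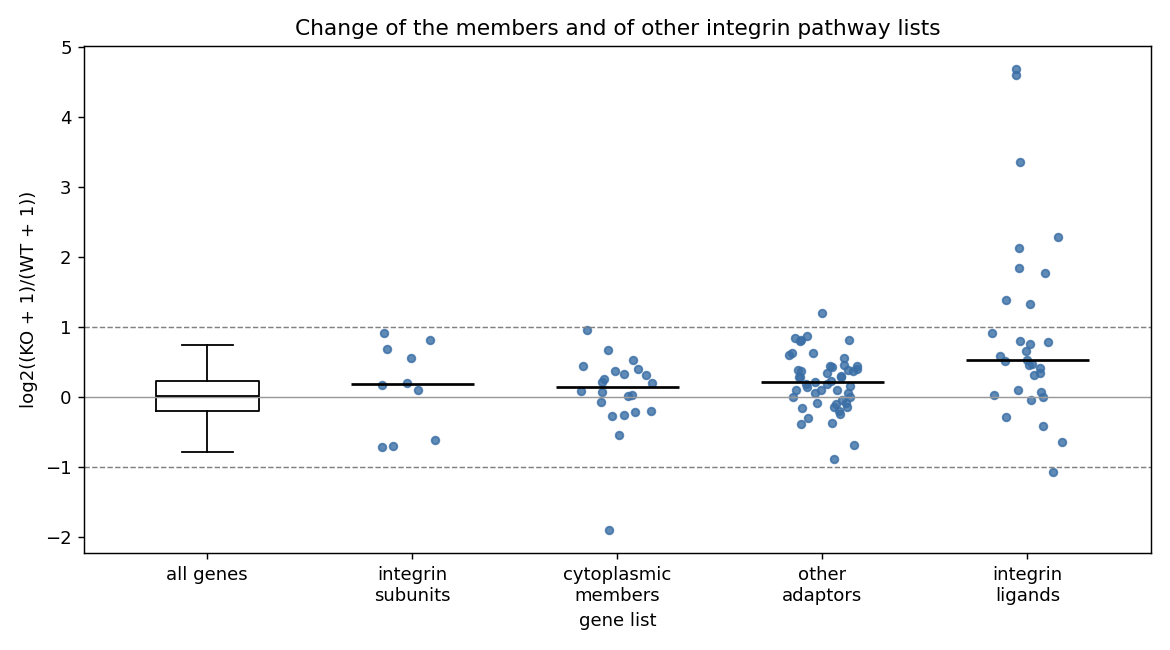
Log2((KO + 1)/(WT + 1)) of the genes past the limit in each list (points, with the list median as a line), beside a box for all genes (box, quartiles; whiskers, percentiles 5 and 95). The list medians are 0.18, 0.14, 0.21 and 0.53 from left to right, and the ligands alone hold points above 2.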

How the data were processed

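RNA sequencing values of 2 C2C12 libraries, 1 WT and 1 KO, were used, grouped by the genotype in the labels. The deposited value of each gene symbol has no named unit. The authors made it with RSEM, and it was read here as FPKM, scaled by transcript length and library total before deposit. This reading rests on totals that differ (568543 and 574253), which do not settle the unit. A TPM table restricted to these genes would give the same plain ratios up to 1 factor. The changes with an added 1 and the genes past the filter could differ. In the methods the authors give TrimGalore for trimming, STAR on GRCm39 for alignment and RSEM for abundance, with TPM and RSEM count estimates as its output, whereas the submitters' processing notes list GRCm38, Trim Galore 0.6.6, STAR 2.7.9a and RSEM 1.3.3. The library kit and sequencer also differ between the methods and the labels. Reads per library are unknown, so no counting interval is given. Low values, 0.02 to 0.1 FPKM in both libraries, had a most frequent KO to WT ratio of 1.11.

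The tables held 21853 rows. For the 24 repeats of a symbol, only the entry of highest mean entered. Changes were log2((KO + 1)/(WT + 1)) for genes averaging 1 FPKM or more. Neighbors were such genes within 5 Mb in GENCODE vM39 on GRCm39, at least 10, for 10037 genes. Members and lists were chosen with earlier results of these data known. Every member was named, and from other lists up to 5 genes per direction beyond 2-fold. A further gene list that had been set up is not reported here. Start site windows came from RefSeq. The deposited files hold no coordinates, so either build serves only as annotation. Simulated data, with large planted changes and little noise for the fold step and a planted block for the neighbor step, checked only that these steps ran as written. They do not tell how reliable the changes reported here are. Python 3.11.15, numpy 2.4.6 and pandas 2.3.3 were used. Alternatives were 2 other pseudocounts, 2 other filters, median-of-ratios scaling and the neighbor subtraction.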

Additional observations from a re-analysis of the deposited data

How the results depend on the processing

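Each line has 1 library, so none could be left out in turn. No paired analysis was possible because no test was run and only 1 replicate number exists. With a pseudocount of 0.1, 2 members were more than 2-fold higher (Lpp and Itgb8) against 0, and 2 other adaptors were lower (Ptk2b and Actn3) against 0. With a pseudocount of 5, 0 members were more than 2-fold lower and 0 ligands were lower, and the counts over all genes went from 299 and 362 to 102 and 176. With a filter at a mean of 5 FPKM, 0 members were lower, since Lims2 left the comparison, and all genes gave 145 and 221. With the neighbor subtraction, 0 other adaptors were more than 2-fold higher. At 1.5-fold, a fold picked once the values were known, 5 members were higher and 4 lower. The other counts stayed within 1.5 times. With no filter, which adds 9 integrin subunits and 2 cytoplasmic members at low levels, the medians went from 0.18 to 0.035 and from 0.14 to 0.076. Under the other alternatives they ran from 0.16 to 0.27 and from 0.13 to 0.20. Among single members, scaling by the median of ratios changed no sign, and the neighbor subtraction changed the sign of 3, Vcl, Ptk2 and Lims1.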
